A study of Mus musculus with 8 samples.

Results

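The genes described here are 35 genes of autophagy and mitophagy, chosen by function: the initiation kinases, the lipid kinase complex, the conjugation enzymes, the ATG8 proteins, the cargo receptors, the mitophagy genes, the transcription factor gene Tfeb and the lysosomal membrane proteins. Of these, 33 were measured among 22180 genes tested, each through probe sets annotated to exactly 1 gene symbol, with the mean taken where a gene had several. Bnip3l was left out because its probe set is also annotated to a pseudogene of Bnip3l, and Optn was not analysed here.

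The samples were hearts of male mice of 8 to 10 weeks, with the strain given as C57BL6JRj among the characteristics and as C57BL6/J under growth. They are 5 samples after an intraperitoneal injection of digoxin at 1 mg/kg and 3 samples after the vehicle. The vehicle was a mixture of ethanol, propylene glycol, citric acid and sodium phosphate. The design text counts more sham samples than these 3. Digoxin is a cardiac glycoside, a drug that inhibits the Na/K-ATPase. Mice were injected at ZT5 and killed at ZT9, in hours of zeitgeber time. The characteristics of the vehicle samples name ZT5 as well as ZT9 for the sacrifice, and the design text gives ZT9 for both groups. Each sample has 1 Affymetrix Mouse Gene 2.0 ST array, and the labels name no animal. All values are log2 expression after Robust Multi-array Average normalisation, and each probe set is centred. They hold how arrays differ and not how strongly a gene is expressed.

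Autophagy delivers cytoplasm to the lysosome in a double membrane, the autophagosome. A kinase complex built on ULK1 starts the process, a lipid kinase complex built on Beclin 1 marks the membrane, and a pair of conjugation systems attach ATG8 proteins to it. Receptors then tie cargo to the ATG8 proteins, and when the cargo is a mitochondrion the process is called mitophagy. The heart is rich in mitochondria, and their removal by BNIP3, BNIP3L and FUNDC1, receptors of the outer mitochondrial membrane, or through the kinase PINK1 is part of its normal upkeep.

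Before the results, vehicle replicate 3 has to be set apart. Its values spread more widely than those of the other arrays, with an interquartile range over all probe sets of 0.216, against 0.0792 to 0.115 on the other 7. Of the 33 genes, 24 had their lowest value of the 8 arrays on it (72.7%), and among all genes tested 25.6% did. The median over the 33 genes was -0.16 on vehicle replicate 3, and on the other arrays it lay between 0 and 0.039 in digoxin hearts and at 0 and 0.066 in vehicle hearts. Markers of ventricular cardiomyocytes, the main cells by mass of the labelled tissue, averaged between -0.063 and 0.044 in digoxin hearts and between -0.035 and 0.028 in vehicle hearts over 8 genes, and centred values cannot show whether they were high. The means of 8 marker lists of cardiac and blood cells overlapped between the groups, that of erythroid cells resting on 1 measured gene of 5. No single marker passed the limma test used below. In Myl2 (log2 change -0.28) and Egfl7 (-0.16) every digoxin array was below every vehicle array. In Cdh5 (0.23) and Pdgfra (0.16) every digoxin array was above. In all other markers the groups overlapped. The widest list mean was that of 6 atrial cardiomyocyte genes, from -0.51 to 2.02 in digoxin hearts and from 0.33 to 2.56 in vehicle hearts. Its part in the results below was not tested beyond the fit with that mean as a covariate. In whole hearts, fewer cells of a type and less RNA per cell cannot be told apart.

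**Figure D1:**
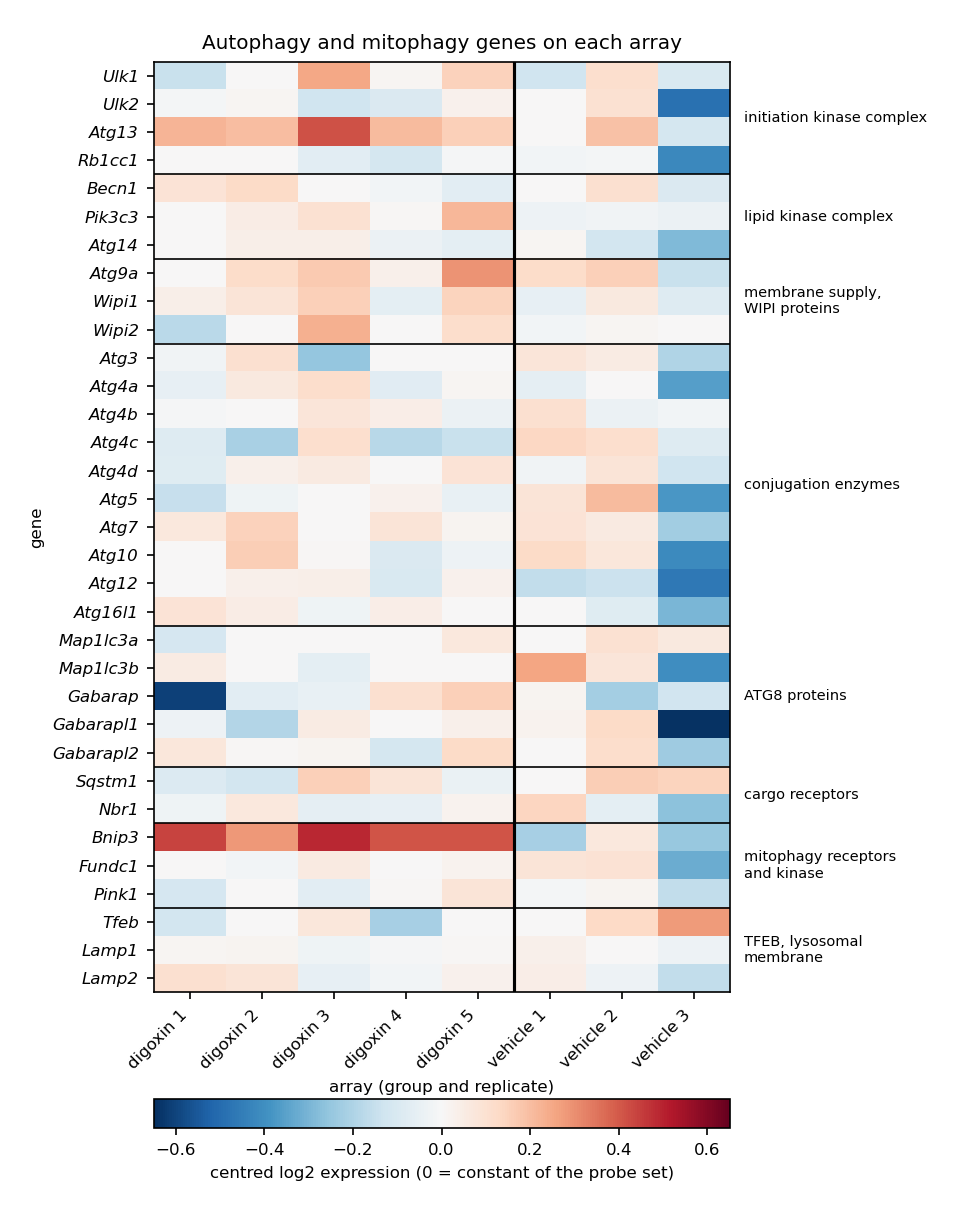
Centred log2 expression (colour) of the 33 measured autophagy and mitophagy genes (rows, by role) on the 5 digoxin arrays and the 3 vehicle arrays (columns). Bnip3 is between 0.28 and 0.49 on the digoxin arrays, and vehicle replicate 3 is the lowest array for 24 of the 33 genes.

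The comparison of digoxin with vehicle asks how these genes respond within hours of a cardiac glycoside. Of the 33 genes, 1 rose and none fell in limma after Benjamini-Hochberg adjustment over all genes, at the threshold of 0.05. Among all genes tested 0.947% rose and 0.415% fell. At an unadjusted p below 0.05 there were 4 genes on the higher side, Bnip3, Atg12, Atg13 and Atg16l1, and 1 on the lower side, Tfeb. That makes 15.2% of the 33 genes, near the 12.3% of all genes. In 3 of the 33 genes, Bnip3, Atg12 and Pik3c3, every digoxin array was above every vehicle array, and in none was every digoxin array below. Over all genes tested these shares were 4.4% and 3.76%. The median log2 change of the 33 genes was 0.06 and that of all genes -0.011. It was positive in 26 of the 33 (78.8%), against 44.4% of all genes. This lean rested on vehicle replicate 3: without it the change was positive in 12 of the 33 genes, and their median was -0.017, beside 48.2% positive and a median of -0.0029 over all genes in the same fit. With arrays weighted by their quality in the fit it was positive in 17.

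**Figure D2:**
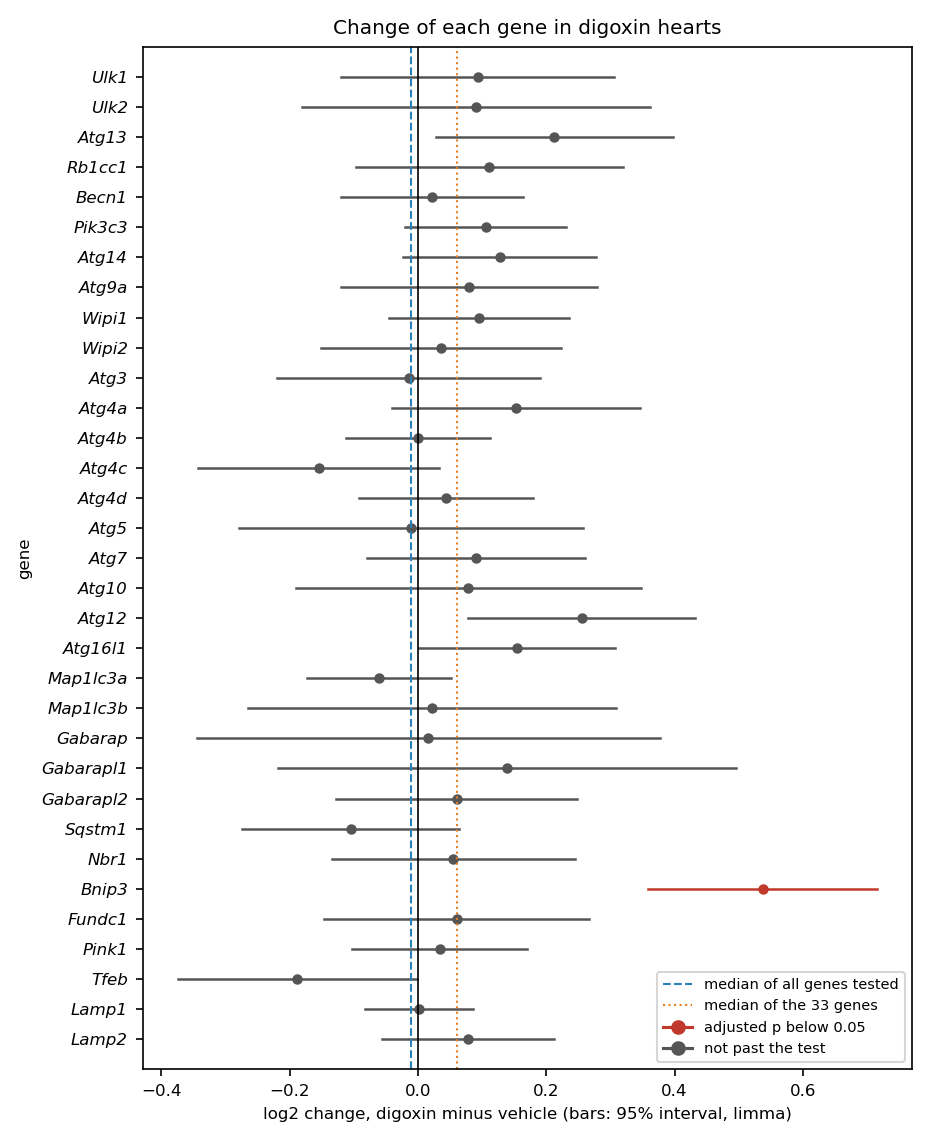
Log2 change of each of the 33 genes, digoxin minus vehicle (points), with the 95% interval of the limma fit (bars). Bnip3, at 0.54, is the gene past the test, and the intervals of the other 32 genes lie within -0.5 and 0.5.

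The gene that rose was Bnip3, which encodes a receptor of the outer mitochondrial membrane that binds ATG8 proteins and is known as a target of HIF-1. The 5 digoxin arrays read 0.44, 0.28, 0.49, 0.41 and 0.41, and the 3 vehicle arrays read -0.21, 0.066 and -0.25. All digoxin arrays stood above all vehicle arrays, and the lowest digoxin value was digoxin replicate 2. Digoxin arrays averaged 0.41 ± 0.076 (SD, n = 5), against -0.13 ± 0.17 (SD, n = 3) for vehicle arrays. The log2 change was 0.54 (SE 0.079, 95% interval 0.36 to 0.72), or 1.45 times the vehicle level, with an adjusted p of 0.0143 in limma. Without vehicle replicate 3 it was 0.48 (adjusted p = 0.032 in limma), and without vehicle replicate 1 it was 0.50 and no longer passed (adjusted p = 0.055).

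The sequences upstream of the start of Bnip3, of Uvrag, which also rose, and of Flcn, which fell, are shown because these are the genes of the Beclin 1, receptor and TFEB branches with the largest changes past the test. They are the 250 bases before the start in the RefSeq promoter table, build GRCm38.p6, at chr7:138909507-138909756 for Bnip3, chr7:99141145-99141394 for Uvrag and chr11:59810040-59810289 for Flcn, all on the minus strand and written 5′ to 3′. Capitals mark matches on either strand to the letters searched.
Bnip3: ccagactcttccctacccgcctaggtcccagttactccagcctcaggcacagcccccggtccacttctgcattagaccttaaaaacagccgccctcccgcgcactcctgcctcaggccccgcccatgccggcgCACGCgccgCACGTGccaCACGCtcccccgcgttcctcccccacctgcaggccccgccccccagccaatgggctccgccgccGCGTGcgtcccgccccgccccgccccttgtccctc
Uvrag: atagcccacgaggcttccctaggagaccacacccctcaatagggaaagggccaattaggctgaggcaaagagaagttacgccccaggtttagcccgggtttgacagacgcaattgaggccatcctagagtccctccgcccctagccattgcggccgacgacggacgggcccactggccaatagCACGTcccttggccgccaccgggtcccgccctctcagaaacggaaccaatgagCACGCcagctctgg
Flcn: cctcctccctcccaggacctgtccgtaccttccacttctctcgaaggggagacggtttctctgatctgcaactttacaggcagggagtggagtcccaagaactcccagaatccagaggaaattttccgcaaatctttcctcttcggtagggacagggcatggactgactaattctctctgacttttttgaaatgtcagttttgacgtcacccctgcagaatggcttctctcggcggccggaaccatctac
The letters searched were ACGTG and GCGTG, the core bound by hypoxia-inducible factors; CACGTG, the E-box, which holds ACGTG and lies within the element bound by TFEB; GTAAACA, bound by FOXO factors; and AGAACA, the hexamer bound by a glucocorticoid receptor subunit. The Bnip3 window held 5 places with ACGTG or GCGTG, 2 of them the overlapping strands of 1 CACGTG. The Uvrag window held 2 places and that of Flcn 0. Neither GTAAACA nor AGAACA was found in the 3 windows. Of the 33 genes, 27 matched the promoter table, with 32 windows. ACGTG or GCGTG was present in 75.0% of these and in 38.6% of 32851 windows of all genes, and CACGTG in 15.6% and 6.02%. GTAAACA was in 0 of the 32 windows and in 3.17% of all, and AGAACA in 9.38% and 16.1%. Guanine and cytosine made up 72.4% of the Bnip3 window, 61.6% of the Uvrag window and 52.0% of the Flcn window. The shares of windows with a match were not adjusted for base content, and its part in them was not tested. Windows of 1 gene can overlap, and a match is a description of the letters, not a bound site.

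The other measured members of the mitophagy group did not pass the test. Fundc1, another receptor of the outer mitochondrial membrane, read 0, -0.020, 0.058, 0 and 0.024 on the digoxin arrays and 0.084, 0.094 and -0.32 on the vehicle arrays. Pink1, the kinase that marks damaged mitochondria for Parkin, read -0.11, 0, -0.070, 0.0057 and 0.083 on the digoxin arrays and -0.014, 0.016 and -0.16 on the vehicle arrays. In both genes the groups overlapped. The log2 change was 0.06 for Fundc1 (95% interval -0.15 to 0.27) and 0.034 for Pink1 (-0.10 to 0.17). Taken within each array, Bnip3 minus Fundc1 averaged 0.39 ± 0.055 on digoxin arrays (SD, n = 5), against -0.083 ± 0.19 on vehicle arrays (SD, n = 3), a difference of 0.48. For Bnip3 minus Pink1 these values were 0.42 ± 0.13 on digoxin arrays (SD, n = 5), against -0.079 ± 0.13 on vehicle arrays (SD, n = 3), a difference of 0.50. Both had an exact two-sided permutation p of 0.0179, the smallest that 56 assignments of the arrays allow, and an adjusted p of 0.0893 over the 10 pairs of related genes compared. With 10 pairs, at least 4 had to reach that smallest p for any to pass. Neither difference passed, although in both pairs every digoxin array was above every vehicle array.

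**Figure D3:**
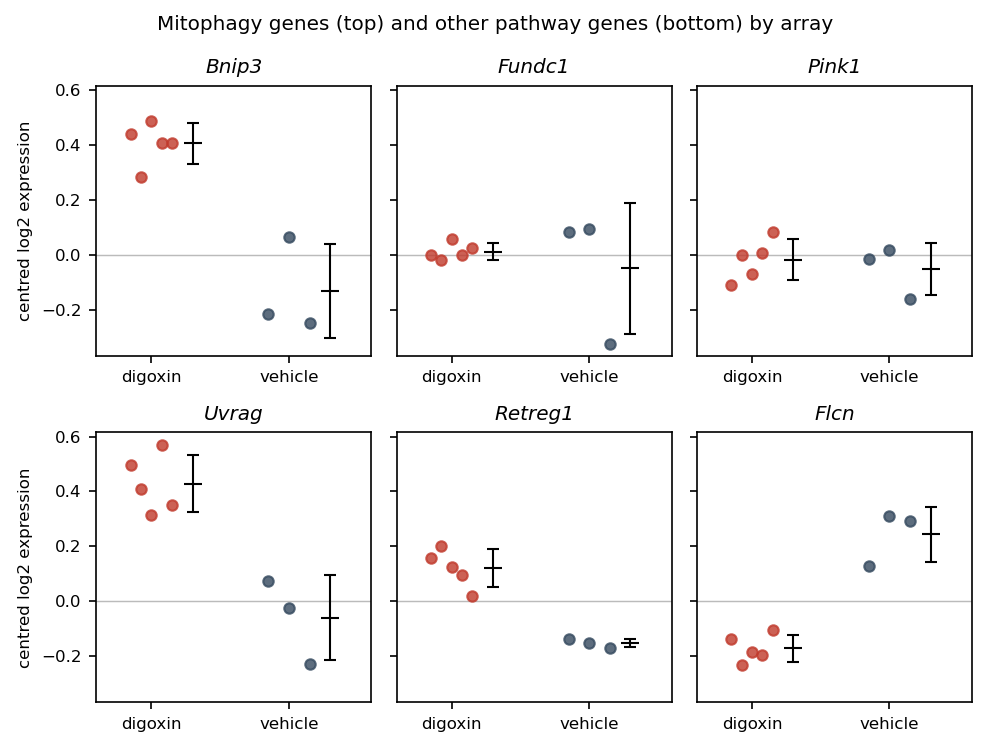
Centred log2 expression on each array (points), with the mean and SD beside them, of Bnip3, Fundc1 and Pink1 (top) and of Uvrag, Retreg1 and Flcn (bottom), digoxin on the left of each panel. In Bnip3, Uvrag and Retreg1 all digoxin arrays lie above the vehicle arrays, in Flcn all lie below, and in Fundc1 and Pink1 the groups overlap.

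None of the 4 genes of the initiation complex passed the test. Atg13, the adaptor through which ULK1 is regulated, read 0.22, 0.20, 0.41, 0.21 and 0.15 on the digoxin arrays and 0, 0.19 and -0.11 on the vehicle arrays. Its change was 0.21 (95% interval 0.028 to 0.40, adjusted p = 0.332 in limma), and vehicle replicate 2 lay among the digoxin values. The kinase genes Ulk1 and Ulk2 stood at 0.093 (-0.12 to 0.31) and 0.091 (-0.18 to 0.36). Rb1cc1, which encodes the scaffold FIP200, stood at 0.11, with -0.42 on vehicle replicate 3 and between -0.11 and 0.0018 on all other arrays. The changes of Ulk1 and Ulk2 were 0.0024 apart with all arrays (exact permutation p = 1.0, two-sided). This closeness rested on vehicle replicate 3, where Ulk2 read -0.49. Without that array Ulk1 stood at 0.064 and Ulk2 at -0.088, a difference of 0.15. Of the partners fixed as a list, Atg101, which stabilises ATG13, had every digoxin array above every vehicle array with a change of 0.21 (adjusted p = 0.14), and Ulk3 stood at -0.032.

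The lipid kinase complex was measured through Becn1, Pik3c3 and Atg14, none of which passed. Pik3c3, the catalytic subunit, read 0.0035, 0.049, 0.10, 0.0087 and 0.22 on the digoxin arrays and -0.031, -0.021 and -0.037 on the vehicle arrays. The groups did not overlap, but the 95% interval of the change of 0.11 ran from -0.020 to 0.23 and included 0. Becn1, which encodes Beclin 1, stood at 0.022 (-0.12 to 0.16), and Atg14, which directs the complex to autophagosome formation, at 0.13 (-0.023 to 0.28).

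Among the other subunits and regulators of that complex, Uvrag rose. UVRAG binds Beclin 1 in the form of the complex that acts in autophagosome maturation and endosomal traffic. Uvrag read 0.49, 0.41, 0.32, 0.57 and 0.35 on the digoxin arrays and 0.074, -0.023 and -0.23 on the vehicle arrays, without overlap. The change was 0.49 (SE 0.082, adjusted p = 0.0272 in limma), or 1.40 times the vehicle level. Leaving out any of digoxin replicates 1, 2 and 5 or vehicle replicate 2 ended the call, with adjusted p values in limma of up to 0.0832, and it held without vehicle replicate 3 (adjusted p = 0.0426). Rubcn, which encodes Rubicon, an inhibitor of this form of the complex, stood at -0.21 (95% interval -0.40 to -0.014, adjusted p = 0.369). Pik3r4 and Ambra1 stood at 0.19 and 0.12 and did not pass.

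Genes of membrane supply gave small values. Atg9a, the scramblase carried by the seed vesicles, stood at 0.080 (-0.12 to 0.28), and the phosphoinositide-binding genes Wipi1 and Wipi2 at 0.095 (-0.046 to 0.24) and 0.036 (-0.15 to 0.22). Of 8 further genes of this step none passed; those with the smallest p were Wdr45 (0.12), Zfyve1 (0.13) and Atg2b (0.17). In Wdr45, also named WIPI4, the 5 digoxin arrays lay between 0 and 0.091, above the vehicle arrays at -0.020, -0.049 and -0.13.

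Of the 10 conjugation genes none passed the test, and they spread on both sides of 0. The largest change was that of Atg12, the ubiquitin-like protein joined to ATG5, with 0, 0.034, 0.039, -0.10 and 0.026 on the digoxin arrays and -0.16, -0.14 and -0.47 on the vehicle arrays. The groups did not overlap. The change was 0.26 (SE 0.078, 95% interval 0.078 to 0.43, adjusted p = 0.209 in limma), and without vehicle replicate 3 it was 0.15. Its partner Atg5 stood at -0.011, where vehicle replicate 3 at -0.38 was set against 0.084 and 0.21 on the other vehicle arrays, and without that array the change was -0.18. Atg16l1, the third part of the complex, stood at 0.15 (95% interval 0.0019 to 0.31, adjusted p = 0.40). The enzymes that run the conjugation gave 0.091 for Atg7, the activating enzyme, and -0.014 and 0.079 for Atg3 and Atg10, the conjugating enzymes. The 4 proteases that trim and recycle ATG8 proteins went to both sides, with Atg4a at 0.15, Atg4d at 0.044, Atg4b at -0.00028 and Atg4c at -0.15. Atg4c read -0.082, -0.21, 0.11, -0.18 and -0.15 on the digoxin arrays and 0.13, 0.11 and -0.086 on the vehicle arrays. The changes of Atg4a and Atg4b differed by 0.15 and those of Atg4d and Atg4c by 0.20, with exact permutation p of 0.161 and 0.0714 (adjusted 0.321 and 0.238 over 10 pairs). Of further genes, Atg16l2 stood at -0.22 and Tecpr1 at 0.14, neither past the test.

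None of the 5 ATG8 genes passed. On the digoxin arrays Map1lc3b, the gene of the common autophagosome marker LC3B, lay between -0.061 and 0.056, a narrow range, and the vehicle arrays read 0.26, 0.080 and -0.40. Its change was 0.022 with all arrays (95% interval -0.26 to 0.31) and -0.17 without vehicle replicate 3 (adjusted p = 0.246). Gabarapl1, known in mice as a FOXO target, read -0.031, -0.19, 0.054, 0 and 0.034 on the digoxin arrays and 0.024, 0.12 and -0.64 on the vehicle arrays. The change was 0.14 (95% interval -0.22 to 0.50) and -0.10 without vehicle replicate 3. Map1lc3a stood at -0.061 and Gabarapl2 at 0.06, both with groups that overlapped. Gabarap was the single gene of the 33 with more than 1 probe set. The probe sets gave -0.061 and 0.094, and on the second digoxin replicate 1 read -1.19, against -0.074 to 0.32 on the other digoxin arrays. Within arrays, the changes of Map1lc3a and Map1lc3b, of Gabarapl1 and Gabarap and of Gabarapl1 and Gabarapl2 differed by -0.083, 0.12 and 0.078, with exact permutation p of 0.714, 0.679 and 0.661. Without vehicle replicate 3 each of these differences changed sign, to 0.11, -0.11 and -0.064.

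The cargo receptor genes measured were Sqstm1, which encodes p62, and Nbr1. Sqstm1 read -0.090, -0.12, 0.16, 0.085 and -0.043 on the digoxin arrays and 0, 0.16 and 0.15 on the vehicle arrays, a change of -0.10 (95% interval -0.27 to 0.065). Nbr1 stood at 0.055 (-0.13 to 0.25). Of 7 further receptor genes 1 rose, Retreg1, which encodes the receptor FAM134B for autophagy of the endoplasmic reticulum. Retreg1 read 0.16, 0.20, 0.13, 0.10 and 0.018 on the digoxin arrays and -0.14, -0.15 and -0.17 on the vehicle arrays, which lay close together. The change was 0.27 (SE 0.049, adjusted p = 0.0364 in limma), or 1.21 times the vehicle level. When each of the 8 arrays was dropped in turn it passed only without digoxin replicate 5, with adjusted p values in limma of 0.0331 to 0.108, and it also missed the threshold when the mean of the atrial markers entered the fit (0.0679). Tax1bp1, Wdfy3 and Ncoa4, the ferritin receptor, stood at 0.14, 0.080 and 0.081.

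Further genes of mitophagy did not pass, 8 in all. Bcl2l13, a receptor of the outer membrane, stood at 0.19 (95% interval 0.025 to 0.36, adjusted p = 0.336), and the kinase gene Tbk1 at 0.14. Mul1, a mitochondrial ubiquitin ligase gene, was read as the mean of 2 probe sets. It had digoxin arrays at 0, 0, 0.027, 0.0002 and 0.19 and vehicle arrays at -0.031, -0.064 and -0.022. Its change was 0.083 (adjusted p = 0.581).

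Tfeb, the transcription factor that drives lysosomal and autophagy genes, was on the lower side. It read -0.12, 0.0002, 0.074, -0.22 and 0.0033 on the digoxin arrays and 0, 0.13 and 0.28 on the vehicle arrays, and the groups overlapped. The change was -0.19 (95% interval -0.37 to -0.0012, adjusted p = 0.402 in limma), and without vehicle replicate 3, the highest array for this gene, it was -0.12. The lysosomal membrane genes Lamp1 and Lamp2 stood at 0.0012 (-0.083 to 0.085) and 0.078 (-0.056 to 0.21). Lamp1 had the smallest SE of the 33 genes, 0.037, with digoxin arrays between -0.027 and 0.018 and vehicle arrays between -0.034 and 0.032. The difference between the changes of Lamp1 and Lamp2 was -0.077 (exact permutation p = 0.125).

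Of 18 other measured genes of the TFEB and lysosome list, Flcn fell. Folliculin, its product, acts on Rag GTPases at the lysosome and keeps TFEB and TFE3 in the cytoplasm. Flcn read -0.14, -0.23, -0.18, -0.20 and -0.10 on the digoxin arrays and 0.13, 0.31 and 0.29 on the vehicle arrays. All digoxin arrays were below all vehicle arrays. The change was -0.41 (SE 0.055, adjusted p = 0.0087 in limma), so that the vehicle level was 1.33 times the digoxin level. The call held whichever of the 8 arrays was dropped, with adjusted p values in limma of 0.0079 to 0.0433. Atp6v1h, a subunit gene of the proton pump of the lysosome, read 0.26, 0.28, 0.23, 0.23 and 0.14 on the digoxin arrays and -0.10, 0 and -0.48 on the vehicle arrays. Its change was 0.42 (adjusted p = 0.0957). It passed without vehicle replicate 3 (change 0.28, adjusted p = 0.0425), after quantile normalisation (0.031) and with array weights (0.0496). When each of the 8 arrays was dropped in turn, it passed only without vehicle replicate 3, with adjusted p values in limma of 0.0425 to 0.22. Ctsl, a lysosomal protease gene, stood at 0.30 without overlap (adjusted p = 0.13), and Tfe3 at -0.20.

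None of 14 genes of autophagosome and lysosome fusion passed. Vamp8 stood at 0.23, Vps11 at 0.18 and Bag3, a co-chaperone of selective autophagy in muscle, at -0.26, with adjusted p values of 0.25 to 0.311. Bag3 lay between -0.093 and 0.13 on the digoxin arrays, and the vehicle arrays read 0.056, 0.45 and 0.20.

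Of 23 upstream regulators, 5 rose and none fell. At an unadjusted p below 0.05 there were 8 on the higher side, the others being Foxo3, Rptor and Sesn2, and 0 on the lower side. That is 34.8% of the 23, against 12.3% of all genes on both sides together. These 5, which are among the 8, were known to change when the list was drawn up. Both counts and the share are therefore descriptions, and setting the share beside that of all genes is no test. Bcl2l1, whose product Bcl-xL binds Beclin 1, lay between 1.26 and 1.32 on the digoxin arrays and at -0.070, -0.27 and -0.34 on the vehicle arrays. Trp53inp1, whose product binds ATG8 proteins, lay between 1.39 and 1.97 on the digoxin arrays and at -0.085, -0.13 and -0.66 on the vehicle arrays. Ddit4 and Sesn1, inhibitors of mTORC1, which itself restrains ULK1, stood at 1.98 and 0.73, and Depp1, reported as a regulator of autophagy, at 1.63. Foxo3, a factor known to drive Bnip3 and Gabarapl1 in mouse muscle, read 0.14, 0.36, 0.39, 0.43 and 0.43 on the digoxin arrays and 0.028, 0.085 and -0.20 on the vehicle arrays, a change of 0.38 (adjusted p = 0.0933). When each of the 8 arrays was dropped in turn, Foxo3 passed only without digoxin replicate 1, its lowest digoxin array. The adjusted p values in limma ran from 0.0447 to 0.215. Without vehicle replicate 3 its change was 0.29 (adjusted p = 0.158). Without the upstream regulators, 2 of 64 other pathway genes rose and 1 fell, where 0.947% of all genes rose and 0.415% fell. With them the counts were 7 and 1 of 87, and without vehicle replicate 3 they were again 7 and 1, with Atp6v1h in place of Retreg1. Every digoxin array was above every vehicle array in 17 of the 87, Vps11, Rptor and Sesn2 included, and below in 1. Over all genes these shares were 4.4% and 3.76%. The list was chosen with earlier results of these data known, so this too is a description.

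The precision of the 33 genes came from 8 arrays, and the vehicle spread was the wider. That spread includes vehicle replicate 3, the lowest array for 24 of the 33 genes. For the 32 genes that did not pass, the SD between arrays had a median of 0.077 for digoxin and 0.15 for vehicle. Their changes lay between -0.19 and 0.26, and 21 of them were below 0.1 in size. All 32 of the 95% intervals lay within -0.5 and 0.5, the widest reaching 0.50 for Gabarapl1. The Bnip3 estimate of 0.54 lay outside each of them. Its own 95% interval, 0.36 to 0.72, overlapped some of them, that of Gabarapl1 included.

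**Figure D4:**
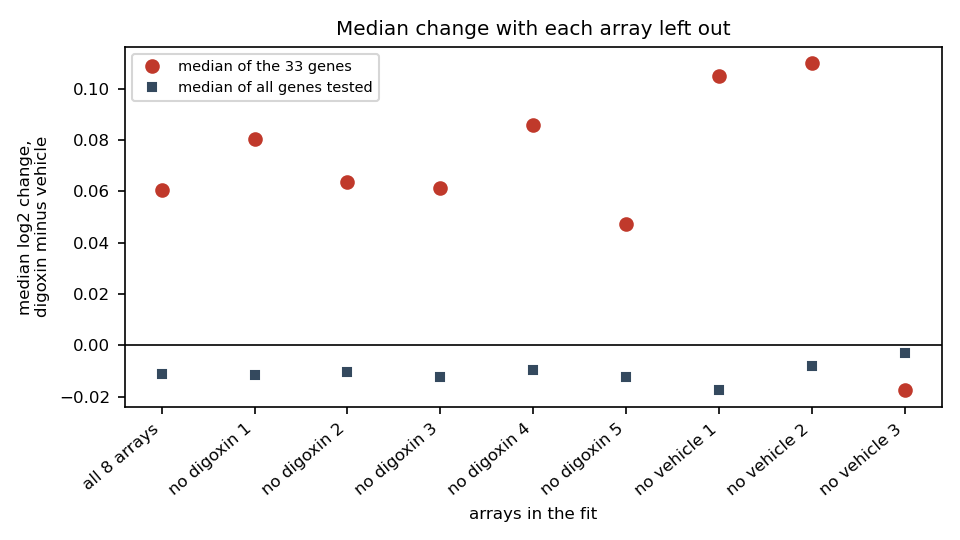
Median log2 change, digoxin minus vehicle, of the 33 genes (circles) and of all 22180 genes (squares) with all 8 arrays and with each array left out in turn. The median of the 33 genes is 0.06 with all arrays, between 0.047 and 0.11 without any array other than vehicle replicate 3, and -0.017 without that array.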

How the data were processed

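RNA of 8 mouse heart samples was measured on Affymetrix Mouse Gene 2.0 ST arrays. The deposited log2 values were normalised by the authors with Robust Multi-Average, per the series design text, and the submitters' processing notes list limma. Their versions were not given in the sources used here. Centring used a constant per probe set that is not stated and is taken to cancel between arrays. The log base is taken as that of the method.

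Of 34351 probe sets, 23521 had 1 symbol, and their mean per gene gave 22180 genes. Digoxin and vehicle were compared with limma 3.58.1 in R 4.3.3 (lmFit, eBayes, two-sided, Benjamini-Hochberg over all genes, threshold 0.05, no covariate). Levels are needed to filter dim genes, so no filter was used. Pairs of related genes were compared by an exact permutation test of their within-array difference; Bnip3 minus Bnip3l was planned and not run. The limma script was tested on simulated data. The genes, the lists of other pathway genes and the pairs were chosen with earlier results of these data known. All measured genes of the set are named, as are pathway genes past the test and up to 3 more per list with the smallest p. The labels number the samples but name no animal, so p values reflect only how these samples spread, which may be technical. Array numbers place vehicle and digoxin arrays in separate runs of numbers, so treatment cannot be told apart from that order. Alternatives covered normalisation, the handling of probe sets, robust variance estimation, weighting of arrays, the threshold, the replicate number as a block, left-out arrays and an atrial covariate.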

Additional observations from a re-analysis of the deposited data

Results flagged for a closer look

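In 8 of 75 values checked, 1 of the 5 digoxin arrays lay far from the other 4 by Dixon's test, whose critical value for 5 samples is 0.71, and chance flags about 1 in 20. Among the autophagy and mitophagy genes these were Atg13 at 0.41 on digoxin replicate 3 (next 0.22), Atg12 at -0.10 on digoxin replicate 4 (next 0), and Gabarap at -0.61 on digoxin replicate 1 (next -0.067), which comes from 1 of its probe sets. Among other pathway genes they were Tecpr1 at 0.24 and Mul1 at 0.19 on digoxin replicate 5, Foxo3 at 0.14 on digoxin replicate 1, below the others, and Sesn2 at 0.27 on digoxin replicate 4. The mean of 5 lymphocyte markers was 1.24 on digoxin replicate 4, against -0.081 to 0.079 on the other digoxin arrays and -0.020 to 0.081 on the vehicle arrays. The T-cell genes Cd3e at 2.85 and Cd3g at 3.16 carried this mean, and Cd79a (0.11), Ms4a1 (0.11) and Nkg7 (0.0031) were near 0 on that array. The part of these genes' source in its other values was not tested. Without that array the Bnip3 log2 change was 0.54 and kept its call (adjusted p = 0.0378 in limma).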

How the results depend on the processing

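With 1 array left out, the count of genes that rose lay between 0 and 1 (0 without vehicle replicate 1) and the median log2 change of the 33 genes between -0.017 and 0.11. With digoxin replicate 4 and vehicle replicate 3 both left out the median was -0.014 and Bnip3 kept its call. With the replicate number as a block, 0 genes rose (Bnip3 0.54, adjusted p = 0.369 in limma), and over all genes 11 rose and 1 fell. The block also ended the calls of Uvrag (adjusted p = 0.192), Retreg1 (0.308), Flcn (0.300), Sesn1 (0.0927) and Trp53inp1 (0.0664). The labels do not state that shared numbers pair the arrays. The correlations of same-numbered deviations were -0.197, -0.0177 and 0.0236, and those of differently numbered arrays lay between -0.151 and 0.193. So few pairs cannot settle whether the numbers pair the arrays. The other alternatives kept 1 gene higher and 0 lower. Over all genes 210 rose and 92 fell; array weights gave 294 and 320, a threshold of 0.10 gave 327 and 166, and leaving out 1 array gave 123 to 185 and 29 to 189. No named gene past the test changed direction, but the sign of values not past the test turned in 14 of the 33 genes without vehicle replicate 3 and in 11 with array weights. In 14 genes it held in all 19 alternatives. No pair of related genes passed in any setting run, but this says little, since with 1 vehicle array left out all 10 would have to reach the smallest p for any to pass. The deposited values are centred, so signal over background is unknown, and the number of arrays limits small changes.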
